A study of Mus musculus with 6 samples.

Results

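The genes described here are 32 genes of homologous recombination, the Fanconi anaemia pathway and mismatch repair, chosen by name from what the proteins are known to do. All 32 were found among the 17068 genes of the count table. They were measured by bulk RNA sequencing of lateral cortex dissected from mouse embryos at E12.5, in 4 control libraries without Cre and 2 libraries labelled Foxp1cKO, to ask which genes change when the transcription factor Foxp1 is deleted from cortical progenitors. Controls 1, 2 and 4 carried Foxp1 fl/+, control 3 carried Foxp1 fl/fl, and both Foxp1cKO libraries carried Foxp1 fl/fl with Emx1Cre. All 6 were female and of c57/bl6 background, and every one carried at least 1 floxed Foxp1 allele. Emx1Cre acts in progenitors of the dorsal telencephalon and is inherited by the cells they make, so that blood, vessel, microglial and ventral cells of a dissected sample keep their floxed alleles.

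The library totals lay between 50076008 and 78346979 counts, and the listed genes had between 341 and 15598 counts in a library, together 0.124% to 0.183% of a library. Levels are given as counts-per-million (CPM), scaled by edgeR's TMM factors, and differences as log2 fold changes of the Foxp1cKO-labelled libraries over the controls. Radial glial, intermediate progenitor and neuronal markers were well above 0 in all 6 libraries, with summed levels of 2129 to 2631, 852 to 1152 and 3239 to 5519 CPM. Foxp1 itself, on chromosome 6, was not lower where its deletion was labelled. It was at 59.7, 60.8, 71.2 and 79.1 CPM in controls 1 to 4 and at 83.2 and 76.8 CPM in the Foxp1cKO-labelled libraries (log2 fold change 0.24, SE 0.129, edgeR adjusted p = 0.468). Reads over the floxed exons alone were not analysed here, so the direction of every difference below rests on the labels.

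Homologous recombination repairs a double-strand break by copying the sister chromatid, and so acts after DNA has been replicated. The broken ends are first trimmed to single strands, a recombinase is then loaded with the help of the BRCA proteins and of the recombinase's own paralogs, and helicases finally take the joined molecules apart. The Fanconi proteins detect and unhook crosslinks that block replication forks, and mismatch repair corrects the copying errors left behind the fork. Many of these genes are known targets of E2F factors and are transcribed around S phase, which makes them abundant in tissue rich in dividing progenitors such as the ventricular zone of the embryonic cortex.

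The promoter sequences of the genes on which the comparisons turn are shown first, from 100 bases before to 30 bases after the annotated start, 5′ to 3′ on the strand of the gene, as given by RefSeq for GRCm38.p6. Brca1 and Msh6 are shown because they stand for the genes that were highest in control 4 and lowest in control 3, and Fancm, Pms2, Fanca and Rad51b because both Foxp1cKO-labelled libraries lay outside the range of the controls. Capitals mark the letters TTCCCGC or TTGGCGC, which E2F factors are known to bind, in either orientation. The window of Brca1 is chr11:101551926-101552055 on the minus strand, that of Msh6 chr17:87974950-87975079 on the plus strand, and that of Fancm chr12:65075503-65075632 on the plus strand. Pms2 is shown at chr5:143909901-143910030 on the plus strand, Fanca at chr8:123318547-123318676 on the minus strand, and Rad51b, at the first of its 2 starts, at chr12:79297182-79297311 on the plus strand.
Brca1: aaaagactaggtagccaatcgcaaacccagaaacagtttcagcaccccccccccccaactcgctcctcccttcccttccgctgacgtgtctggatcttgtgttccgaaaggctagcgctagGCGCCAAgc
Msh6: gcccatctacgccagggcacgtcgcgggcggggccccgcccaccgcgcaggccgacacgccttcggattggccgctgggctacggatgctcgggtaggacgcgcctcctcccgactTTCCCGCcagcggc
Fancm: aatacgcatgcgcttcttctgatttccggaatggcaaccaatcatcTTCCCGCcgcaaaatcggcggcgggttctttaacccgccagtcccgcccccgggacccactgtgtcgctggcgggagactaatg
Pms2: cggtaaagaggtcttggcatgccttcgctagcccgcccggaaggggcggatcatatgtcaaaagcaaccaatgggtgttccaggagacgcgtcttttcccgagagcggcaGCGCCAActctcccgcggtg
Fanca: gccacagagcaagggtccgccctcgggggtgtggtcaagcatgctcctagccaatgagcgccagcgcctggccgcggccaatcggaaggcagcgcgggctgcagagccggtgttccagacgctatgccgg
Rad51b: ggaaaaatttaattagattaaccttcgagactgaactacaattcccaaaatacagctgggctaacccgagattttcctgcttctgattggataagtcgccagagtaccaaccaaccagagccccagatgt

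Of the 32 genes, 24 had a promoter in the RefSeq table, and the letters were searched on both strands over its full window of 250 bases before to 50 bases after the start. They were found in 13 of the 24 promoters (54.2%), against 1634 of 12174 promoters of genes in the count table (13.4%) and 2105 of all 27025 promoters (7.79%). In a list of S phase genes, 14 of 24 promoters held them (58.3%). On the gene's own strand alone, the share was 4 of 24 (16.7%) against 7.06% of the count table's genes and 10 of 24 (41.7%) of the S phase list. The match of Brca1 began 22 bases after the start, that of Msh6 17 bases after it, that of Pms2 11 bases after it and that of Fancm 54 bases before it, whereas Fanca and Rad51b held none. The letters TTTGAA or TTCGAA, a form of the CHR element known from genes of late cell cycle, were in 2 of the 24 promoters (8.33%), those of Bard1 and of the second start of Rad51b, against 16.6% in the count table. A match of letters describes these windows and does not show that a factor binds there.

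None of the 32 genes passed an adjusted p of 0.05 between the groups in edgeR's quasi-likelihood test, in which 26 of 17068 genes passed (0.152%). The adjusted p of the 32 ran from 0.236 to 0.995. The log2 fold change was below 0 for 18 genes and above 0 for 14, with a median of -0.038 beside -0.0044 over all genes tested. At an unadjusted p of 0.05, 3 of the 32 genes passed (9.38%), which is below the 13% of all genes that did so. With DESeq2, 507 of 15067 genes passed (3.36%) and 1 of the 32 was among them, Fanca.

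For 30 of the 32 genes the log2 fold change lay within 0.25 of 0, and 29 of the 95% intervals held 0. The interval lay within -1 to 1 for 31 of the genes, with a median half-width of 0.380, so that differences smaller than this were not detectable for a typical gene with 4 and 2 libraries. In whole tissue, fewer cells of a type and less RNA per cell cannot be told apart.

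**Figure D1:**
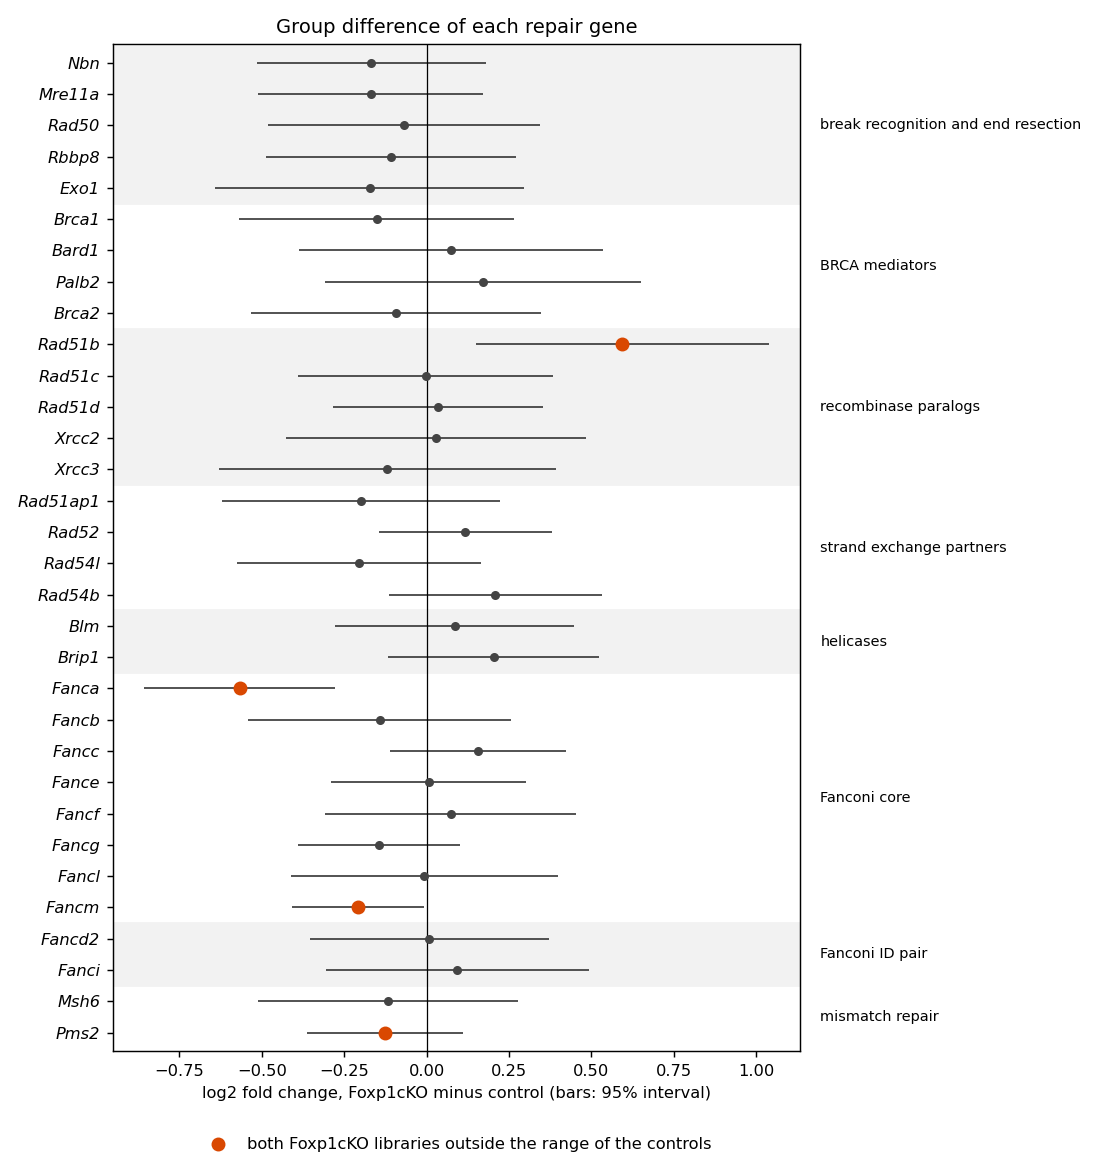
Log2 fold change of each of the 32 repair genes, Foxp1cKO-labelled libraries (n = 2) over controls (n = 4), by edgeR's quasi-likelihood fit, with bars for the 95% interval and shading for the roles. Larger points are the 4 genes whose 2 Foxp1cKO-labelled libraries lay outside the range of the controls; 29 of the 32 intervals cross the line at 0.

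The repair genes varied among the controls. For 29 of the 32 genes (90.6%), the group difference was smaller than the log2 range of the 4 controls, which held for 83.5% of all genes too. Control 4 was the highest of the 6 libraries for 25 genes (78.1%, against 24.5% of all genes) and control 3 the lowest for 23 (71.9%, against 22.3% of all genes), and 21 genes showed both (65.6%, against 10.9% of all genes). Control 4 exceeded control 3 for 30 of the genes (93.8%), by a median of 1.48-fold over the 32, against 53.2% of all genes and a median of 1.02-fold. The 32 genes summed to 1520, 1391, 1254 and 1816 CPM in controls 1 to 4 and to 1454 and 1403 CPM in the Foxp1cKO-labelled libraries, both of which lay inside the control range. Averaged on the log2 scale, the controls had a level of 5.19 ± 0.206 (SD, n = 4) and the Foxp1cKO-labelled libraries one of 5.17 ± 0.0207 (SD, n = 2).

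**Figure D2:**
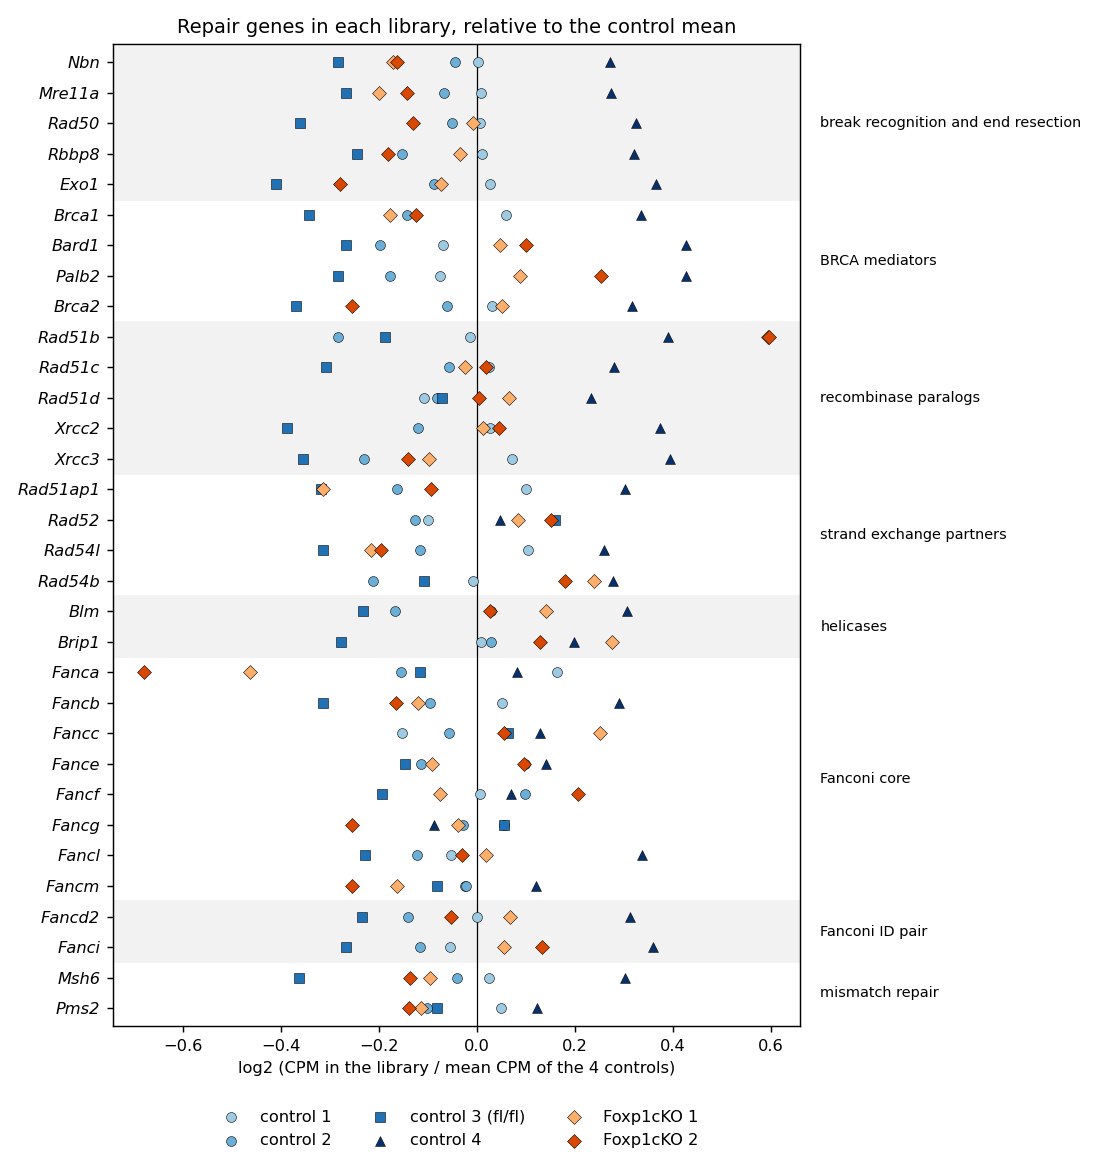
Level of each repair gene in each of the 6 libraries, as log2 of its CPM over the mean CPM of the 4 controls, grouped by role. Control 4 (triangles) lies at the right and control 3 (squares, Foxp1 fl/fl) at the left for most genes, with the Foxp1cKO-labelled libraries (diamonds) between them; Rad51b and Fanca are the genes with both diamonds far outside.

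Which control stood for the group therefore decided the direction. Set against control 3 alone, the median log2 difference of the 32 genes was 0.23 and 27 genes were higher in the mean of the Foxp1cKO-labelled libraries. Set against control 4 alone, it was -0.34 and 28 genes were lower. Against controls 1 and 2 it was -0.085 and 0.049. In the fit over the groups, 18 of the 32 genes were below 0, against 11 when control 4 was left out and 23 when control 3 was. Control 3 was also the only control with the Foxp1 fl/fl genotype of the Foxp1cKO-labelled libraries, so that genotype and library cannot be told apart there.

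Several other gene lists moved with the same libraries, and others did not. A list of 31 S phase genes had a mean log2 CPM of 6.42, 6.29, 6.11 and 6.70 in controls 1 to 4, and all 31 were highest in control 4. A list of 22 genes of G2 and mitosis had 7.51, 7.44, 7.21 and 7.77, with all 22 highest in control 4. The 8 radial glial markers had 7.32, 7.42, 7.04 and 7.57, with 4 of the 8 highest in control 4. By contrast, the 7 intermediate progenitor markers had 6.75, 6.87, 6.51 and 6.47, with 0 of the 7 highest in control 4. Of 13 end joining genes, 6 were higher in control 4 than in control 3. Summed neuronal markers were lowest in control 4 at 3239 CPM and highest in control 3 at 5519 CPM. Ventral telencephalic markers summed to 824 CPM in control 3 and to 232 to 515 CPM in the other 5 libraries. Nkx2-1, a defining gene of the medial ganglionic eminence, was at 13.2 CPM in control 3 and at 0.22 to 1.07 CPM elsewhere. Their part in the levels of the repair genes was not tested.

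The level of the repair genes was also set against the cell cycle lists. The mean log2 CPM of the 32 genes minus that of the S phase list was -1.21, -1.20, -1.13 and -1.24 in controls 1 to 4 and -0.99 and -1.02 in the Foxp1cKO-labelled libraries. Both of these lay above all 4 controls, while the repair genes and the S phase list each overlapped between the groups. Taken against the G2 and mitosis list instead, the same difference was -2.30, -2.34, -2.23 and -2.31 in controls 1 to 4 and -2.27 and -2.16 in the Foxp1cKO-labelled libraries, of which the first lay inside the control range. All 31 S phase genes had a log2 fold change below 0, with a median of -0.18, but none passed the threshold in edgeR. The list averaged 6.38 ± 0.249 on the log2 CPM scale for controls (SD, n = 4) against 6.18 ± 0.0015 (SD, n = 2). There are 15 ways to choose 2 of 6 libraries, so that an exact permutation test of such a value cannot go below p = 0.0667.

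**Figure D3:**
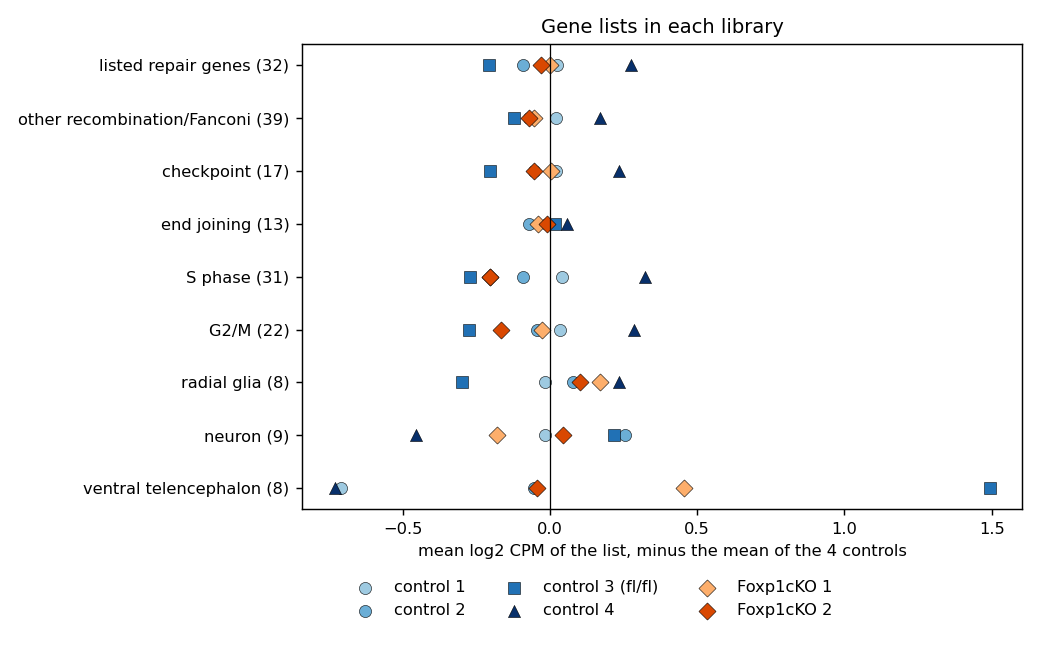
Mean log2 CPM of each gene list in each library, minus its mean over the 4 controls, with the number of genes in brackets. The repair genes, other recombination/Fanconi, checkpoint, S phase, G2/M and radial glia lists all have control 4 highest and control 3 lowest. The end joining list has control 4 highest but control 2, not control 3, lowest. The neuronal list has control 4 lowest, and the ventral telencephalon list has control 3 far to the right.

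The 5 genes of break recognition and end trimming were ordered alike across the controls. Mre11a, Rad50 and Nbn encode the complex that binds a broken end, Rbbp8 its trimming cofactor, and Exo1 an exonuclease that extends the single strand. All 5 had a log2 fold change below 0, from -0.17 to -0.069, and for all 5 control 4 was the highest and control 3 the lowest library. Without control 4, Rad50 was at 0.058 and Rbbp8 at 0.018, and Exo1 at -0.028, so that the shared sign rested on that library. Exo1 was at 71.0, 65.6, 52.4 and 89.7 CPM in controls 1 to 4 and at 66.2 and 57.4 CPM in the Foxp1cKO-labelled libraries (log2 fold change -0.17, SE 0.199, edgeR adjusted p = 0.745). Control 4 exceeded control 3 by 1.71-fold for Exo1, the widest such ratio of the 32 genes.

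Of the BRCA mediators, Brca1 and Bard1 form a ubiquitin ligase, Palb2 joins Brca1 to Brca2, and Brca2 loads the recombinase. Brca1 was at 116, 101, 88.1 and 141 CPM in controls 1 to 4 and at 98.7 and 102 CPM in the Foxp1cKO-labelled libraries (log2 fold change -0.15, SE 0.177, edgeR adjusted p = 0.750). Both of the latter lay inside the control range. Brca2 also had a log2 fold change below 0 (-0.093), and Bard1 (0.073) and Palb2 (0.17) had one above 0, each smaller than its SE. All 4 genes were highest in control 4 and lowest in control 3.

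Among the 5 recombinase paralogs, which stabilise the recombinase on single-stranded DNA, Rad51b stood apart. Rad51b (ENSMUSG00000059060.15, chr12:79297282-79814690, plus strand) was at 16.1, 13.4, 14.3 and 21.3 CPM in controls 1 to 4 and at 24.6 and 24.6 CPM in the libraries labelled Foxp1cKO. Both were above every control, and control 4 was again the highest control. The log2 fold change was 0.59 (SE 0.188, 95% interval 0.15 to 1.04, unadjusted p = 0.0159, edgeR adjusted p = 0.294). Genes with both Foxp1cKO-labelled libraries above all controls made up 11.5% of all genes tested, and Rad51b was the only 1 of the 32 (3.12%). The partners with which Rad51b works, Rad51c, Rad51d and Xrcc2, had log2 fold changes of -0.0030, 0.034 and 0.029, and Xrcc3 had -0.12. Relative to the mean of these other 4 paralogs, the log2 CPM of Rad51b was -0.31, -0.46, -0.20 and -0.23 in controls 1 to 4 and 0.31 and 0.32 in the Foxp1cKO-labelled libraries. Rad51b already lay above every control by itself, so this relative level describes the same difference and is not separate evidence.

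The strand exchange partners act once the recombinase is on the DNA. Rad54l and Rad54b are translocases that open the intact duplex, Rad51ap1 promotes joint formation, and Rad52 anneals single strands. Rad54b was at 49.6, 43.1, 46.3 and 60.5 CPM in controls 1 to 4 and at 58.9 and 56.5 CPM in the Foxp1cKO-labelled libraries (log2 fold change 0.21, SE 0.137, edgeR adjusted p = 0.543). Only control 4 was above them. Rad54b shares 35.8% of its exon bases with Fsbp on the same strand, so its counts are uncertain. Its relative Rad54l had a log2 fold change of the other sign, -0.21 (SE 0.157), as did Rad51ap1 at -0.20 (SE 0.178). Rad52 and Fancg were the 2 genes of the 32 that were not higher in control 4 than in control 3.

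The 2 helicases were both above 0 in log2 fold change. Blm, which dissolves double Holliday junctions, was at 103, 90.0, 85.9 and 125 CPM in controls 1 to 4 and at 111 and 103 CPM in the Foxp1cKO-labelled libraries (log2 fold change 0.085, SE 0.154). Brip1, the helicase that binds Brca1, was at 27.1, 27.5, 22.3 and 30.9 CPM in controls 1 to 4. It was at 32.6 and 29.5 CPM in the Foxp1cKO-labelled libraries, of which only the first was above control 4 (log2 fold change 0.20, SE 0.136, edgeR adjusted p = 0.552).

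The Fanconi core held the lowest log2 fold change of the 32 genes. Fanca (ENSMUSG00000032815.16, chr8:123268300-123318576, minus strand), a scaffold of the core ubiquitin ligase, was at 68.5, 54.9, 56.4 and 64.7 CPM in controls 1 to 4. It was at 44.4 and 38.2 CPM in the libraries labelled Foxp1cKO, both below every control. The log2 fold change was -0.57 (SE 0.123, 95% interval -0.86 to -0.28, unadjusted p = 0.00240, edgeR adjusted p = 0.236), and DESeq2 gave -0.56 with an adjusted p of 0.00551. Unlike most of the genes, Fanca was highest in control 1, and control 4 exceeded control 3 by only 1.15-fold. Of its exon bases, 10.5% lie opposite Zfp276 on the other strand, and the strand setting of the counting is not given in the sources used here.

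Fancm, the translocase that anchors the core at a stalled fork, was the other core gene outside the control range. Fancm (ENSMUSG00000055884.8, chr12:65075603-65132058, plus strand) was at 63.8, 63.9, 61.3 and 70.5 CPM in controls 1 to 4 and at 57.9 and 54.4 CPM in the Foxp1cKO-labelled libraries. Both were below every control, with a log2 fold change of -0.21 (SE 0.085, 95% interval -0.41 to -0.0087, unadjusted p = 0.0430, edgeR adjusted p = 0.370). Fancc, which bridges parts of the core, had a log2 fold change of 0.16 (SE 0.113, edgeR adjusted p = 0.584), from 22.3, 23.9, 25.9 and 27.2 CPM in controls 1 to 4 and 29.5 and 25.8 CPM in the Foxp1cKO-labelled libraries. The remaining core genes Fancb, Fance, Fancf, Fancg and Fancl, of which Fancl is the ubiquitin ligase itself, had log2 fold changes between -0.14 and 0.074, and all overlapped. Relative to the mean of the other 7 core genes, the log2 CPM of Fanca was 1.71, 1.44, 1.55 and 1.49 in controls 1 to 4 and 1.12 and 0.92 in the Foxp1cKO-labelled libraries. Fanca already lay below every control by itself, so this relative level describes the same difference and is not separate evidence.

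Fancd2 and Fanci, the pair that the core ubiquitinates at a crosslink, had log2 fold changes close to 0. Fancd2 was at 64.1, 58.2, 54.5 and 79.6 CPM in controls 1 to 4 and at 67.1 and 61.8 CPM in the Foxp1cKO-labelled libraries, with a log2 fold change of 0.0079 (SE 0.154, 95% interval -0.35 to 0.37). Fanci had a log2 fold change of 0.094 (SE 0.169). Both were highest in control 4 and lowest in control 3.

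The mismatch repair genes were Msh6, a subunit of the mismatch sensor, and Pms2, a subunit of the nicking endonuclease. Msh6 was at 163, 156, 125 and 198 CPM in controls 1 to 4 and at 150 and 146 CPM in the Foxp1cKO-labelled libraries (log2 fold change -0.12, SE 0.167, edgeR adjusted p = 0.802). Pms2 was at 25.9, 23.3, 23.7 and 27.3 CPM in controls 1 to 4 and at 23.1 and 22.8 CPM in the Foxp1cKO-labelled libraries, both just below the lowest control (log2 fold change -0.13, SE 0.100, edgeR adjusted p = 0.619). Pms2 shares 394 exon bases with Gm42421 and 85 with Rsph10b on its own strand. With Fanca and Fancm, Pms2 made up the 3 of 32 genes with both Foxp1cKO-labelled libraries below all controls (9.38%), against 13.1% of all genes tested.

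**Figure D4:**
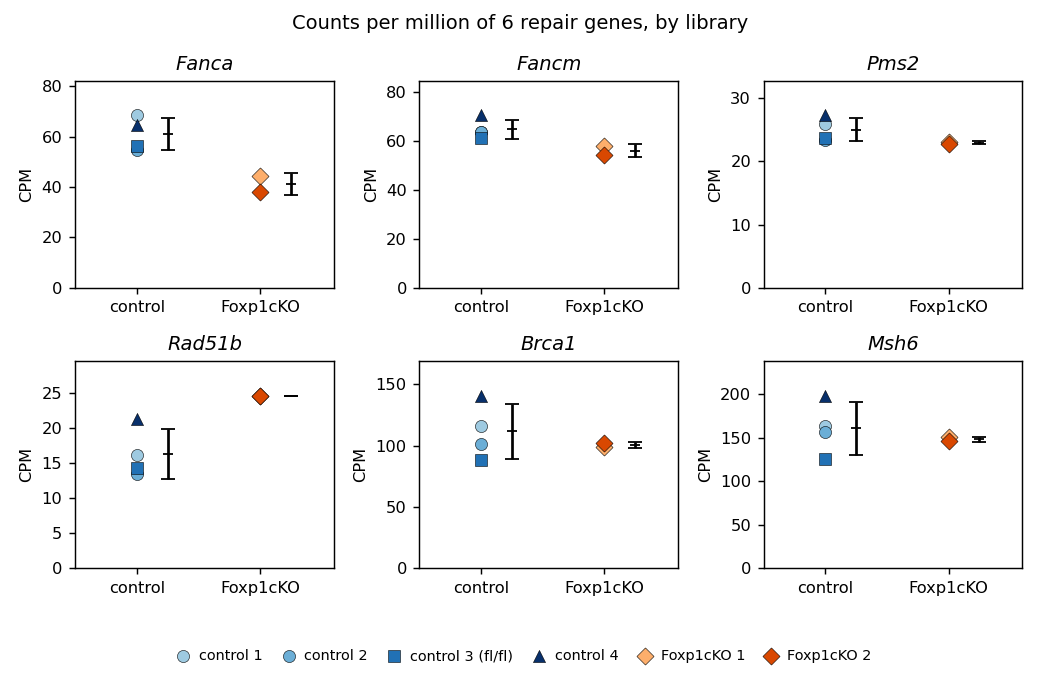
CPM of 6 repair genes in each library (points), with the mean and SD of the 4 controls and of the 2 Foxp1cKO-labelled libraries beside them; the vertical axes start at 0. Fanca, Fancm and Pms2 have both Foxp1cKO-labelled libraries below the controls, Rad51b has both above, and Brca1 and Msh6 have both inside a control range that runs from control 3 to control 4.

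Per kilobase of exon, averaged over the 6 libraries, the levels spanned from 2.90 CPM per kilobase for Palb2 to 36.0 for Msh6. Msh6 was followed by Nbn at 15.4 and Brca1 at 12.6, and no library of Msh6 overlapped any library of these. Below them the ranges of neighbouring genes in this order overlapped. Palb2, Pms2 at 3.00 and Fancc at 3.08 were the lowest, and their libraries overlapped each other.

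**Figure D5:**
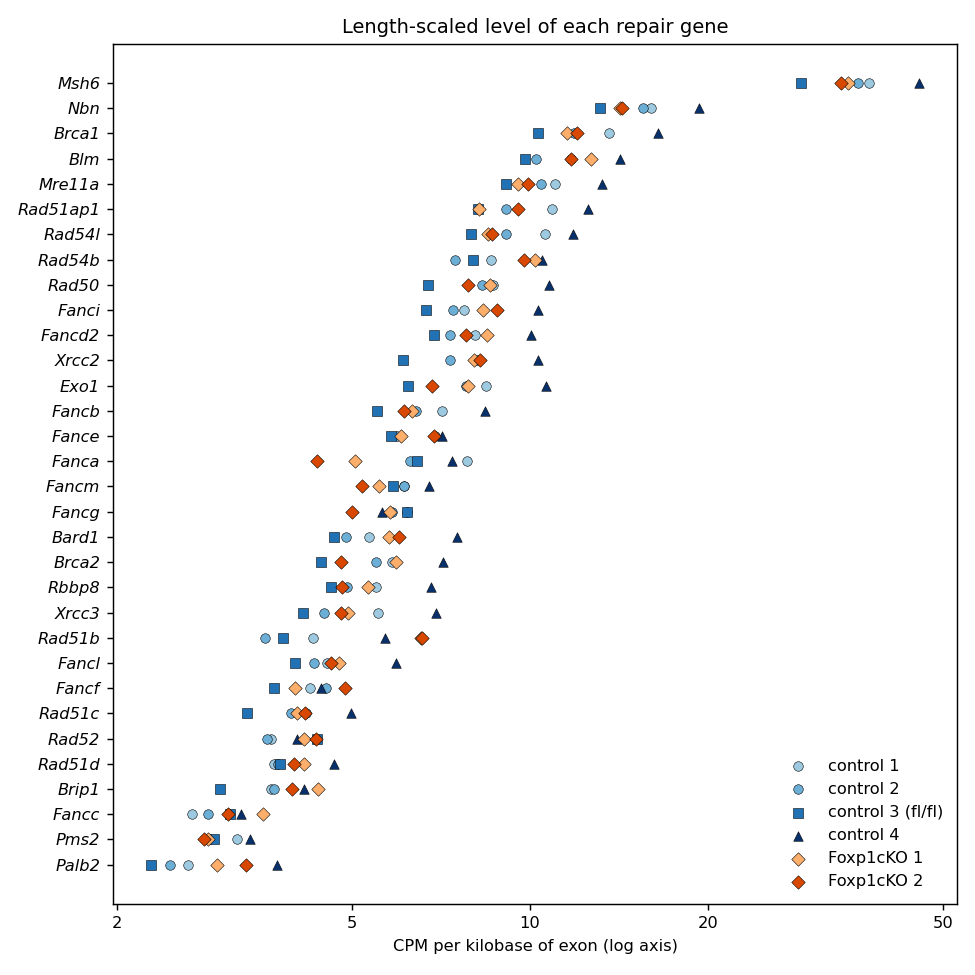
Level of each repair gene in CPM per kilobase of exon (log axis) in each of the 6 libraries, ordered by the mean over libraries. Msh6 stands above the rest with all libraries to the right, and the other 31 genes form a continuous series down to Palb2 at 2.90.

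Further genes of the same processes were counted from lists chosen by function. None passed the threshold in any list in the edgeR fit. Of 39 other recombination and Fanconi genes, 29 had a log2 fold change below 0 (74.4%, against 50.7% of all genes), with a median of -0.075. In edgeR, 3 of the 39 had an unadjusted p under 0.05, against 13% of all genes. Both Foxp1cKO-labelled libraries lay below all controls for 9 of the 39 and above them for 2, against 13.1% and 11.5% of all genes. The one with the smallest p was Swsap1, a component of the Shu complex that assists the recombinase (log2 fold change -0.39, SE 0.117, edgeR adjusted p = 0.289). Of 14 other mismatch repair genes, 10 were below 0 with a median of -0.093, led by Rfc4, a subunit of the clamp loader (log2 fold change -0.41, SE 0.184, edgeR adjusted p = 0.402). Of 17 checkpoint genes, 12 were below 0 with a median of -0.040, and Trp53bp1, which limits end trimming, had the smallest p (log2 fold change -0.22, SE 0.114, edgeR adjusted p = 0.453).

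End joining, the pathway that competes with recombination for a break, had 8 of 13 genes below 0 and a median of -0.067. Its smallest p was that of Shld1, a subunit of the shieldin complex that blocks end trimming (log2 fold change 0.38, SE 0.141, edgeR adjusted p = 0.343). Shld1 was at 10.8, 10.4, 13.4 and 12.4 CPM in controls 1 to 4 and at 15.0 and 15.6 CPM in the Foxp1cKO-labelled libraries, both above every control. In the S phase list the smallest p was that of Ccne1, the cyclin of S phase entry (log2 fold change -0.79, SE 0.213, edgeR adjusted p = 0.265). With DESeq2, Ccne1 (adjusted p = 0.0191) and Rrm2 of the same list (adjusted p = 0.0464) passed the threshold. Among 22 genes of G2 and mitosis, 20 were below 0 with a median of -0.089, and the smallest p was that of Cdc20, an activator of the anaphase-promoting complex (log2 fold change -0.26, SE 0.139, edgeR adjusted p = 0.470).

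Markers of other cells also differed between libraries. Summed erythroid markers were at 1435, 1089, 1138 and 3427 CPM in controls 1 to 4 and at 3757 and 4018 CPM in the Foxp1cKO-labelled libraries. Most of these sums was Hbb-y, at 935, 754, 774 and 2340 CPM in controls 1 to 4 and at 2454 and 2739 CPM. Of the 7 markers, 6 had a log2 fold change above 0, while Hbb-bs was at -0.17 with overlapping groups. Mural cell markers summed to 55.9 to 72.1 CPM in the controls and to 88.1 and 91.2 CPM in the Foxp1cKO-labelled libraries. Endothelial markers summed to 135 to 208 CPM in the controls and to 196 and 239 CPM in the Foxp1cKO-labelled libraries. Of the 8, 1 passed the threshold in edgeR, Flt1 (log2 fold change 1.64), against 0.152% of all genes. The log2 fold change was above 0 for 6 of the 8 and below 0 for 2, Tek (-0.35) and Cldn5 (-0.053). Microglial markers summed to 23.4 to 49.5 CPM and meningeal markers to 41.3 to 272 CPM in the controls, with the Foxp1cKO-labelled libraries inside both ranges. No marker in the table was at 0 in a library, and the part of these cells in the values of Fanca, Rad51b, Fancm and Pms2 was not tested.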

How the data were processed

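Bulk RNA of E12.5 lateral cortex was sequenced in 6 libraries, grouped by their titles as 4 controls and 2 Foxp1cKO. Per the labels and methods, the authors aligned reads with STAR to mm10 and checked them with FastQC 0.11.9 and Picard. They sorted and converted the alignments with SAMtools and counted reads per gene with HTSeq 0.9.1. The authors deposited these raw counts and a table of log2-like variance-stabilised values from DESeq2 1.30.1. The strand setting is not given in the sources used here. Of the gene identifiers, 17047 of 17068 were found in GENCODE M21 (GRCm38), from which positions and exon lengths come.

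Counts were tested with edgeR 4.0.16 in R 4.3.3 (TMM, quasi-likelihood, group as the only term, all 17068 genes, Benjamini-Hochberg adjustment, threshold 0.05), in a script tested on simulated data. The authors' model had a litter term, which the labels do not give and which was not used. CPM carry no pseudocount, and mean log2 CPM used a prior count of 2. A count of 3 corresponds to 0.0381 to 0.0596 CPM. Alternatives were DESeq2 1.42.0, limma 3.58.1 on the deposited log2 values, other scalings and filters, each library left out, and a replicate block. Chi-square values per gene between libraries of a group were 25.9 to 193, so no library was a copy of another. The labels do not say whether the libraries came from separate litters, so p-values measure only the spread between these samples.

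The 32 genes and the other lists were chosen with earlier results of these data known. All 32 could be named, with full values for the 6 smallest p-values and for genes outside the control range, and the gene of smallest p in each other list. Full values of Exo1, Brca1, Blm, Fancd2, Msh6 and Nkx2-1 were added after the values were seen.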

Additional observations from a re-analysis of the deposited data

Results flagged for a closer look

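Rad51d, a recombinase paralog, had 1 control far from the other 3: control 4 was at 17.3 CPM, against 13.7, 13.9 and 14.0 CPM in controls 1, 2 and 3 and the gap took 0.905 of the control range, which is past Dixon's 95% critical value for 4 samples. Of 32 repair genes tested this way it was the only 1, and chance alone marks about 1 in 20 such groups. The Foxp1cKO-labelled libraries were at 15.4 and 14.8 CPM, between control 3 and control 4.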

How the results depend on the processing

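The count of repair genes past the threshold was 0 in the reported fit, with limma, with either other scaling, with both filters, with any 1 library left out and with the replicate block. It was 1 with DESeq2 (Fanca) and 2 with a crossed replicate block (Fanca and Rad51b), an alternative chosen after seeing the data, in which 1301 genes passed in all. Of the other repair and cell cycle genes, 2 passed with DESeq2 (Ccne1 and Rrm2), 6 with the crossed block, and 0 to 1 with 1 library left out, that being Rmi2 without control 4. The number of repair genes below 0 was 11 without control 4 and 23 without control 3, and 11 to 23 over all libraries left out, with a median log2 fold change of -0.12 to 0.058. Searched on the gene strand only, the E2F letters were in 4 promoters. Same-numbered libraries share only a number, and their deviations correlated at -0.198 and 0.0157. The replicate block left 16 genes below 0 and a median of -0.013. In that fit 0 of all 17068 genes passed, so the absence of a repair gene there is uninformative. Controls 3 and 4 have no partner number, so a block compares the groups without them. Leaving out controls 3 and 4 also gave 16 genes below 0, with a median of -0.014, so these fits are not separate checks. Fanca kept a log2 fold change of -0.68 to -0.48 over the alternatives other than the crossed block and the joint removal of controls 3 and 4 (adjusted p 0.00551 to 0.631), Rad51b of 0.51 to 0.75 (adjusted p 0.0622 to 0.885) and Fancm of -0.26 to -0.17 (adjusted p 0.215 to 0.885).

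Of the 32 genes, 19 kept their sign under all 15 alternatives, and the other 13 were close to 0 at the start. Among these alternatives, the blocks and the joint removal of controls 3 and 4 are not separate from each other. Leaving out 1 library took the log2 fold change of Bard1 from -0.018 to 0.25, Brca2 from -0.25 to 0.037, Fancd2 from -0.075 to 0.13, Fance from -0.11 to 0.097, Fancf from -0.092 to 0.21, Fancl from -0.089 to 0.13, Msh6 from -0.23 to 0.00045, Rad50 from -0.18 to 0.058, Rad51c from -0.11 to 0.10, Rad51d from -0.017 to 0.12, Rbbp8 from -0.19 to 0.018, Xrcc2 from -0.093 to 0.18 and Xrcc3 from -0.23 to 0.041. Fancl was 0.0094 with limma, 0.0083 with total counts, 0.0094 with a mean of at least 100 counts, 0.081 with the replicate block, 0.081 with the crossed block and 0.080 without controls 3 and 4. Rad51c was 0.0018 with DESeq2, 0.011 with limma, 0.0019 with size factors, 0.012 with total counts, 0.013 with a mean of at least 100 counts, 0.014 with the replicate block, 0.013 with the crossed block and 0.013 without controls 3 and 4. The cause was not tested.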

Other observations

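Rmi2, which encodes a partner of Blm in the complex that dissolves recombination intermediates, was chosen after its values were seen. It was at 26.1, 21.6, 26.2 and 37.9 CPM in controls 1 to 4 and at 41.4 and 42.3 CPM in the Foxp1cKO-labelled libraries, both above every control. Over all genes, 11.5% had both Foxp1cKO-labelled libraries above all controls. The log2 fold change of Rmi2 was 0.58 (SE 0.203, 95% interval 0.10 to 1.06, edgeR adjusted p = 0.327). Without control 4 it was 0.76 with an edgeR adjusted p of 0.049, in a fit in which 96 genes passed, against 26 in the reported fit. Blm itself had a log2 fold change of 0.085.

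The spread among the controls was also set beside the promoter letters. The 13 repair genes with an E2F match had a median ratio of control 4 to control 3 of 1.52-fold, with a range of 0.907 to 1.62, and the 11 without had 1.46-fold, with a range of 1.05 to 1.68. The median log2 fold change between the groups was -0.12 with 9 of 13 below 0, and 0.0063 with 5 of 11 below 0. This difference was not tested.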
